A study of Drosophila melanogaster with 40 samples.

Results

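Capicua (Cic) peaks beside 4 regulators of neural, segmental and sexual fate were followed through 6 conditions of the early Drosophila embryo. They are the peaks that the authors annotated to prospero (pros), Twin of m4 (Tom), abdominal A (abd-A) and sisterless A (sisA). Members were taken by gene symbol from the final peak list, where each gene had 1 peak, so the members are 4 peaks, beside 99 other peaks of that list. Chromatin immunoprecipitation with sequencing was done on pooled embryos of nuclear cycle 14, collected in the dark for 3 to 4 h and fixed for 15 min. All groups but the negative control carried 1 copy of Cic tagged with super-folder GFP, and an antibody against GFP was used. The labels give the wild type genotype as (+/+); (CicsfGFP/+). OptoSOS embryos were (UAS-OptoSOS/gal4);(CicsfGFP/gal4), driven by the maternal triple driver MTD, and received no light or blue light for 1, 5 or 30 min. Embryos with constitutively active Torso were (TorD4021/+);(cicsfGFP/+), and untagged OreR embryos (+/+) were the negative control. Each group had 3 ChIP libraries except the group given 1 min of light, which had 2.

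Cic is an HMG-box repressor that sits on enhancers and promoters until ERK, the kinase at the end of receptor tyrosine kinase signalling, phosphorylates it and relieves repression. In OptoSOS embryos blue light brings a SOS fragment to the membrane and so activates Ras and ERK throughout the embryo, whereas Torso is the receptor that normally does so at the poles. The genes described here act in different programmes. The homeodomain factor encoded by pros moves neural daughter cells from self-renewal to differentiation. Tom belongs to the Bearded family, small proteins that inhibit the ubiquitin ligase Neuralized and thereby Notch signalling. The Hox gene abd-A sets the identity of abdominal segments, and sisA encodes a bZIP protein counted as an X-linked signal when Sex-lethal (Sxl) is switched on in females. The role of sisA in sex determination comes earlier than nuclear cycle 14, and the sex of the embryos is not given in the labels.

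Every signal below comes from 1 matrix per condition in which the authors had already combined the replicates, so there is no replicate error and no test across samples. The authors' z-score is 0 at the mean of the noise peaks of that condition. Its values lay on whole steps, read as sequenced bases, which gave coverage over noise, a ratio that is 1 at the noise mean. The level of a peak is the mean within 250 bp of the window centre. Intervals are 95% exact Poisson or conditional intervals on read equivalents and cover counting error only. Depth is stated only for the peak calls, which used 6994179 wild type tags and 5712080 untagged tags. A peak is called past 2-fold where the ratio of coverage over noise is below 0.5 or above 2. In pooled embryos, fewer nuclei with Cic at a site and less Cic in each nucleus cannot be told apart.

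The 4 peaks lay in the middle and lower part of the final list by wild type enrichment over untagged embryos. Coordinates are those of the authors' dm6 files. The pros peak (3R, 11355297 to 11355518) was 222 bp wide, rank 97 in width among all final peaks, counted from the widest. Its fold enrichment was 5.65, close to the lowest of the list at 5.02. It had no annotation class but a distance of 0 bp to the start of transcript FBtr0304604. The RefSeq gene table places it inside pros (3R, 11328480 to 11407627), with lncRNA:CR46009 281 bp to the left of the summit and lncRNA:CR46010 702 bp to the right. The Tom peak (3L, 14967981 to 14968333) had a fold enrichment of 6.60, and its summit lay 1199 bp before the Tom gene (3L, 14969344 to 14970306).

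The abd-A peak (3R, 16826336 to 16826817) was intronic, 1288 bp from the nearest start site, with a fold enrichment of 7.61. The sisA peak (X, 11322214 to 11322727) covered the start site of sisA and had a fold enrichment of 7.46. The near edge of the sisA gene lay 65 bp to the left of the summit. The median over the list was 7.19. The pileup at the summit, the authors' extended read coverage, was 51.5 at pros, 91.5 at Tom, 75.1 at abd-A and 73.5 at sisA, with a median of 78.4 over the list. Pileup divided by fold enrichment was taken as an approximate background level of the peak call. It is not a measured untagged coverage at the summit. At Tom this background level was 1.80 times the lowest of the list, against 1.18 at pros, 1.28 at abd-A, 1.28 at sisA and a median of 1.22. Its part in the Tom values was not tested.

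The surroundings of the peaks differed. No other MACS2 call lay within 100 kb of the pros or the sisA peak, also when the 365 calls that the authors left out of the final list are counted. The Tom peak lay in the Bearded gene cluster. Brd was 4.52 kb and Ocho 6.70 kb to the right of its summit, and BobA 22.02 kb to the left. A weaker call left out of the list stood 14.6 kb to the right with a fold enrichment of 4.18. The next final peaks, 71.6 to 77.1 kb away, were annotated to Rpn12R or to ind. The abd-A peak was the only final peak within 100 kb in the bithorax complex. Left-out calls stood 42.96 kb to the right (fold enrichment 3.17, over MSAmiP and lncRNA:iab8), 92.5 and 95.1 kb to the right (3.41 and 3.13, also over lncRNA:iab8) and 84.1 kb to the left (4.32, over lncRNA:bxd).

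**Figure D1:**
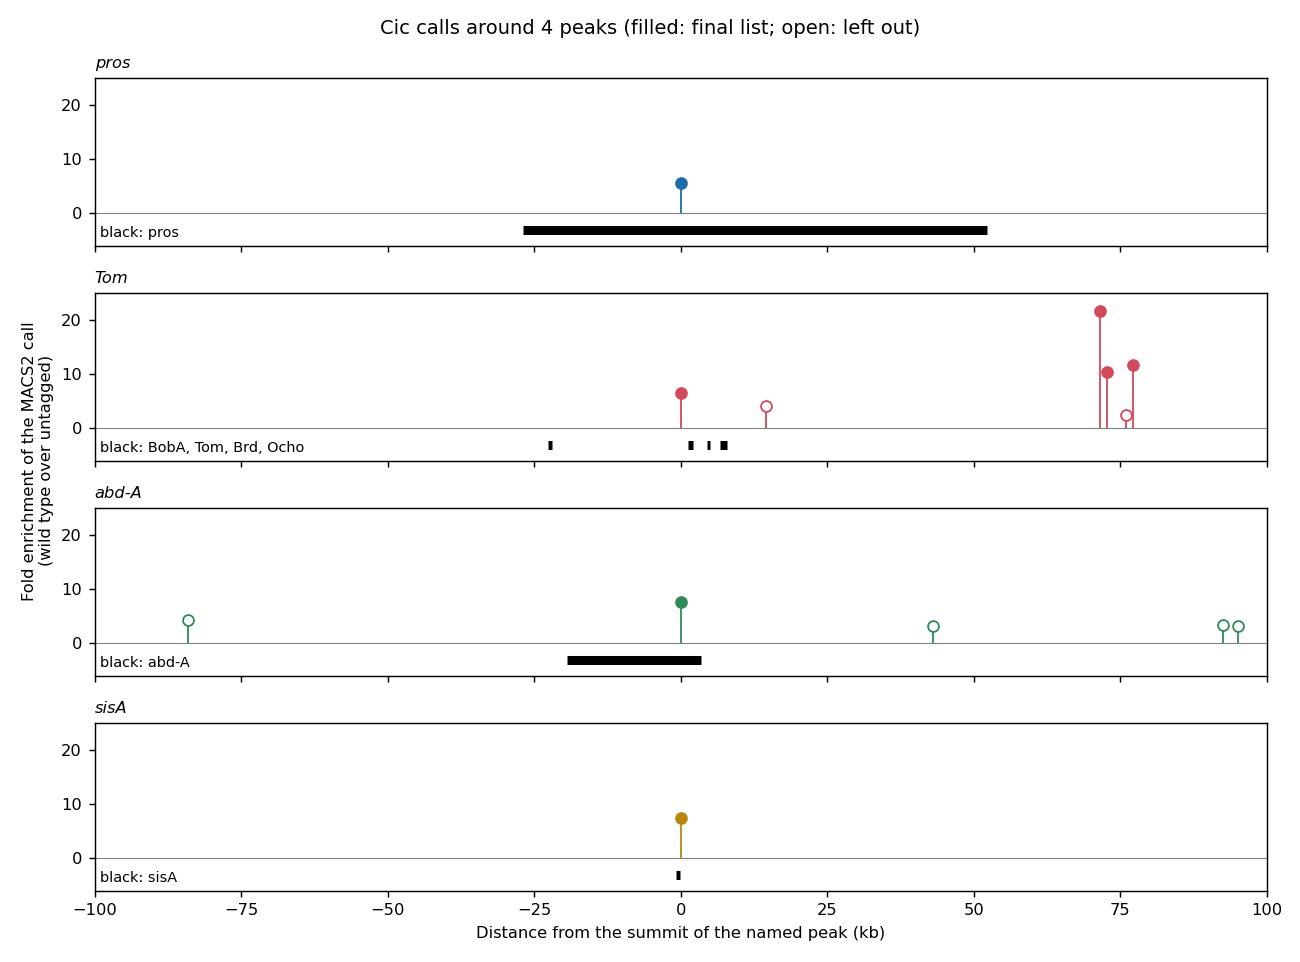
MACS2 calls within 100 kb of each named peak. The x axis is the distance from the summit in kb and the y axis the authors' fold enrichment of wild type over untagged embryos, with filled points for the final list, open points for left-out calls and black bars for the genes named in each panel. The pros and sisA peaks stand alone, the Tom peak stands beside the Bearded genes, and 4 left-out calls flank the abd-A peak.

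At each of the 4 genes Cic coverage stood higher in the wild type, in the dark and at 1 min than it did at 5 min, at 30 min or in active Torso embryos. The counting intervals of these 3 higher and 3 lower conditions did not overlap at pros, Tom and sisA. At abd-A they did, since the wild type interval of 6.40 to 8.49 overlapped that of 5 min, 5.10 to 6.99. The share of all peaks with such separate intervals was not computed. Most peaks fell in the same way. Against no light 93.2% of all peaks were lower beyond counting error at 5 min and 95.1% at 30 min. With active Torso 87.4% were, against wild type.

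**Figure D2:**
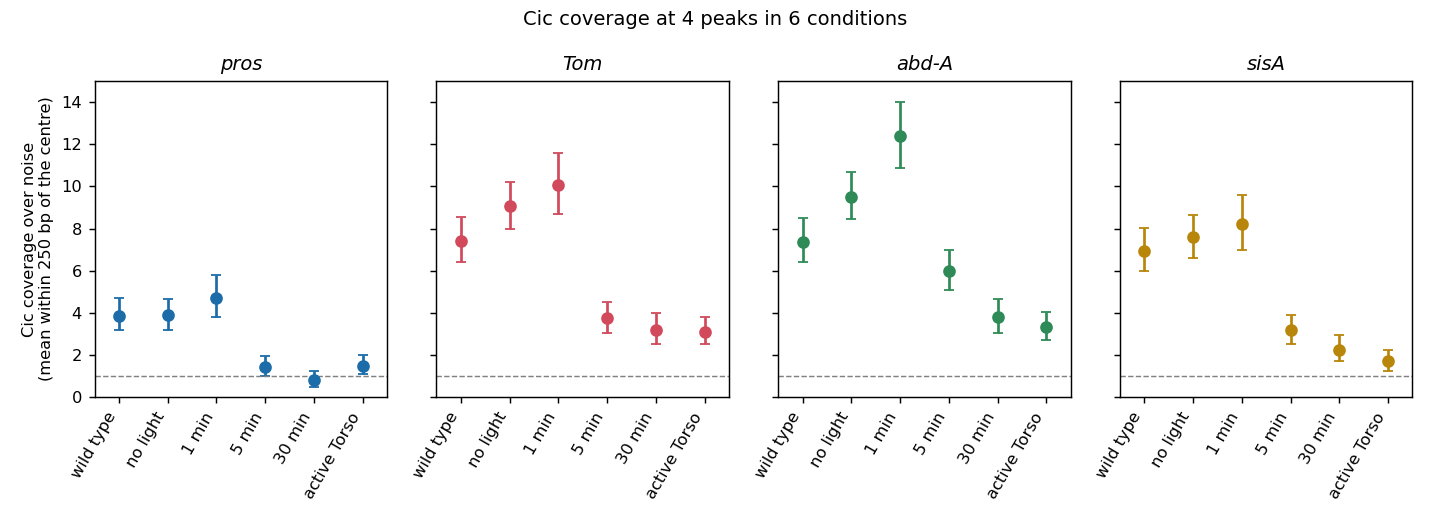
Cic coverage over noise at each peak in 6 conditions, with 95% Poisson intervals that cover counting error only and a dashed line at the noise mean. Each point is 1 combined matrix. At pros the 30 min interval includes the noise mean, whereas abd-A still has 6.0 times the noise mean at 5 min.

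The pros peak was the weakest of the set and ended at the noise level. Its coverage over noise was 3.875 in wild type, 3.887 in no light, 4.72 after 1 min, 1.43 after 5 min, 0.799 after 30 min and 1.48 with active Torso. The authors' mean z-score went from 3.91 in no light to 0.574 after 5 min and -0.250 after 30 min. Only the 30 min interval, 0.479 to 1.24, included the noise mean, while that of 5 min, 1.00 to 1.94, began just above it. At 30 min pros had the lowest coverage of all final peaks, against rank 94 from the highest in no light. The profile had a narrow central summit, with a mid-height width of 160 bp in no light and 200 bp after 1 min. Farther out, the highest point in no light had 3.49 times the noise mean, 430 bp to the left, which was 40.6% of the centre. After 30 min its shape was lost, since the best match to the no light profile within 300 bp reached a correlation of only 0.28 over windows.

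The Tom peak had the highest central summit of the set in no light, and a side summit whose ratio to no light was higher than that of the centre. Coverage over noise was 7.43 in wild type, 9.05 in no light, 10.1 after 1 min, 3.74 after 5 min, 3.18 after 30 min and 3.09 with active Torso. The mean z-score was 10.9 in no light, 3.64 after 5 min and 2.72 after 30 min. On the right, the side of the Tom gene, a second summit stood 370 bp from the centre in no light with 6.10 times the noise mean, 33% of the centre. After 5 min the highest point on that side had 6.28, and after 30 min 6.55, at 460 and 400 bp. These were 105% and 116% of the centre. By profile shape the Tom windows of these conditions lay within 20 bp of no light. The correlation over windows was 0.77 at 5 min and 0.59 at 30 min. A stretch without coverage toward the right end of the window went against this placement. It ended nearer the centre in no light than at 5 and 30 min, by more than 20 bp.

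Read over 300 to 500 bp on the right, a stretch chosen after the profile was seen, coverage at Tom was 3.77 in no light, 7.91 after 1 min, 4.63 after 5 min and 4.34 after 30 min. The ratio to no light was 1.23 after 5 min (0.810 to 1.88) and 1.15 after 30 min (0.753 to 1.81). Over 200 bp on either side of the centre the same ratios were 0.386 (0.298 to 0.495) and 0.331 (0.248 to 0.437). The intervals of centre and side did not overlap at either time, but the Tom windows did not lie at the same place. The side stretch thus held partly other bases in no light than at 5 and 30 min. The part of this in the side ratios was not tested. Over 300 to 500 bp on the right, the ratio was also above that of the centre at pros, abd-A and sisA at both times. Their coverage there in no light was lower, at 2.11, 1.93 and 1.46. On the left of sisA, with 1.03 in no light, the ratio was 1.85 after 5 min and 2.04 after 30 min. Of the 55 side stretches of all peaks with at least 3 times the noise mean in no light, the median ratio was 0.502 after 5 min and 0.426 after 30 min, and that of Tom had rank 2 from the highest at both times. The bounds were chosen on the Tom profile, so neither this rank nor the separate intervals of centre and side are a test of Tom. With active Torso the Tom side stretch had 0.944 times the wild type level (0.573 to 1.54), rank 6 of 40. An untagged profile of this stretch was not analysed here.

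The abd-A peak was the broadest of the set in no light and kept the largest share of its coverage at 5 min, 63.2%. Coverage over noise was 7.38 in wild type, 9.50 in no light, 12.4 after 1 min, 6.0 after 5 min, 3.79 after 30 min and 3.35 with active Torso. The mean z-score was 11.5 in no light, 6.64 after 5 min and 3.49 after 30 min. In no light the profile had a flat top of 410 bp at mid-height, with 12.9 times the noise mean at the centre and 12.6 at 170 bp to the right. After 1 min the same width held 19.6 at the centre and 15.7 at 250 bp to the right. In wild type the mid-height width was 250 bp. Best alignment by shape moved the profile by 70 bp between wild type and no light, between no light and 1 min, and between no light and 5 min, so the highest point changed place within the peak. At 5 min its centre still had 11.6 times the noise mean, close to the 12.9 of no light.

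The sisA peak covered the start site and had its lowest coverage with active Torso. Coverage over noise was 6.95 in wild type, 7.58 in no light, 8.20 after 1 min, 3.18 after 5 min, 2.25 after 30 min and 1.70 with active Torso. The mean z-score was 8.92 in no light, 1.57 after 30 min and 0.938 with active Torso, where the interval of coverage, 1.25 to 2.22, stayed above the noise mean. A smaller summit stood upstream of the gene, 660 bp to the right of the centre in no light with 4.83 times the noise mean. Over 550 to 750 bp on that side, also chosen after the profile was seen, coverage was 3.44 in no light, 4.26 after 1 min, 2.64 after 5 min and 1.11 after 30 min. Its ratio to no light was 0.768 after 5 min (0.461 to 1.26) and 0.322 after 30 min (0.152 to 0.647). The windows of sisA lay 90 and 80 bp apart by shape in these comparisons.

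**Figure D3:**
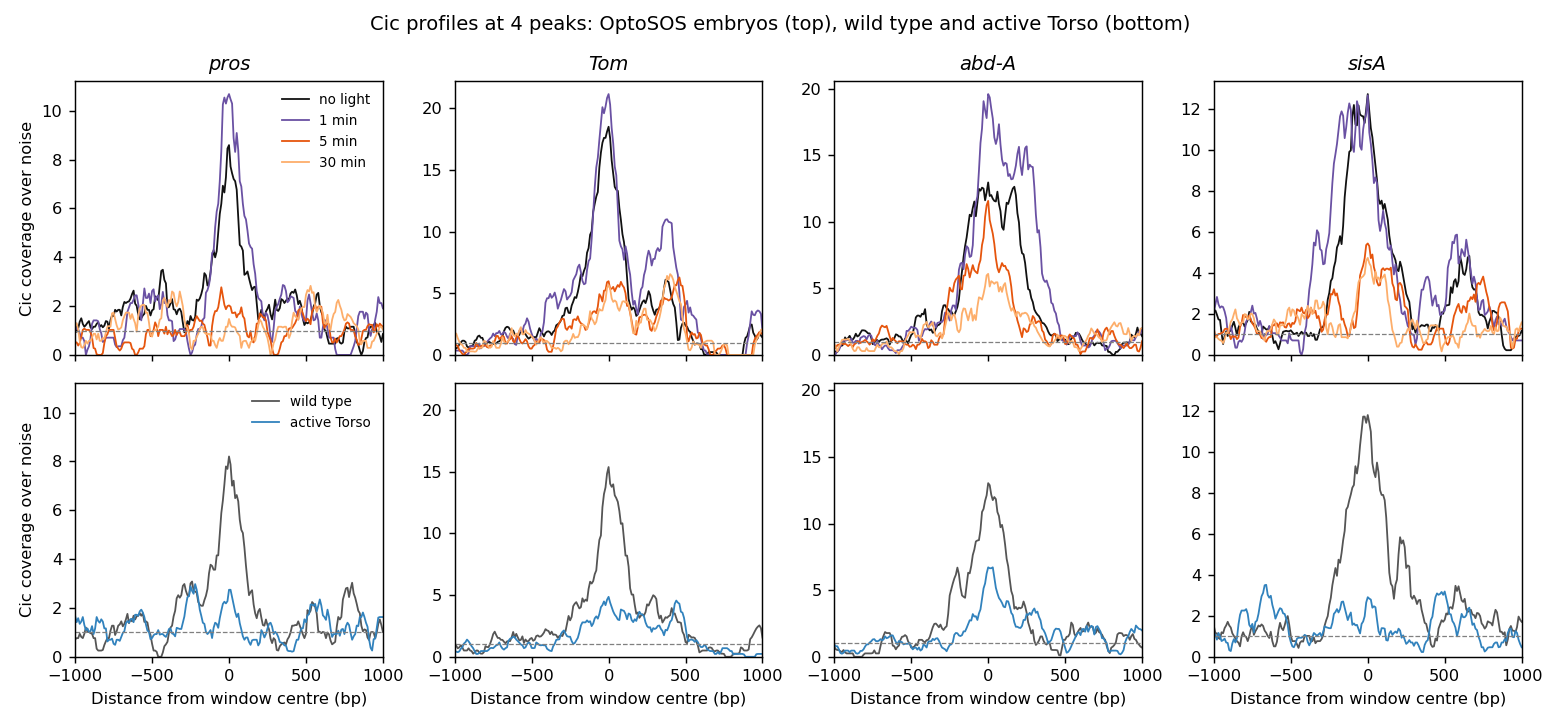
Cic profiles over the 2 kb windows of the 4 peaks, as coverage over noise against distance from the window centre in bp, for OptoSOS embryos in the upper row and wild type and active Torso embryos in the lower row. Each condition has its own window centre, usually but not always the highest point of the window. On the right of Tom the side summit is about as high at 5 and 30 min as in no light, and highest at 1 min, abd-A has a flat top in no light, and the pros summit is gone after 30 min.

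The dark OptoSOS embryos were set beside the wild type first, as the baseline for the light series. None of the 4 members was past 2-fold, as for 0% of all peaks. Coverage was 1.29 times the wild type level at abd-A (1.07 to 1.55) and 1.22 times at Tom (1.01 to 1.47), both beyond counting error, which was so at 46.6% of all peaks. It was 1.09 times at sisA (0.894 to 1.33) and 1.00 times at pros (0.763 to 1.32), which spans equality. The members' median ratio was 1.16, near the 1.19 of all peaks. By highest window value abd-A was at 0.993 times the wild type, and pros went down to 0.939 under 1 of 6 other settings, so no direction is given for pros.

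The shortest exposure addressed whether Cic had left by 1 min. By coverage the ratio to no light was above 1 at all 4 genes, though under 2 of 6 other settings it was below 1 at sisA, at 0.929 in the lowest. Such a rise was general, since of all peaks 97 were above 1 and 6 below. The members' median ratio was 1.16, lower than the 1.26 of all peaks. No member was past 2-fold, a share of 1.94% over all peaks. The ratio was 1.30 at abd-A (1.09 to 1.55), the only member higher beyond counting error, which held for 63.1% of all peaks. It was 1.21 at pros (0.914 to 1.61), 1.11 at Tom (0.920 to 1.34) and 1.08 at sisA (0.880 to 1.33). By z-score Tom went from 10.92 to 9.997 and sisA from 8.92 to 7.94, so the direction at these genes depended on the measure. On the right of abd-A, 300 to 500 bp from the centre, coverage was 5.06 after 1 min and 1.92 in no light, while the windows lay 70 bp apart by shape. The 1 min matrix rests on 2 libraries and had the lowest noise coverage of the 6, at 2.83 reads.

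After 5 min of light Cic coverage was lower at all 4 genes, least so at abd-A. It was 2.71-fold lower at pros (1.89 to 4.08), 2.42-fold lower at Tom (1.93 to 3.09) and 2.38-fold lower at sisA (1.86 to 3.11), against 1.58-fold at abd-A (1.30 to 1.94). Thus 3 of 4 members were lower past 2-fold, where 51.5% of all peaks were, and all 4 were lower beyond counting error, where 93.2% were. The median fold was 2.40 over the members and 2.02 over all peaks. Ordered from the lowest ratio, pros had rank 24 of all peaks, Tom 33, sisA 34 and abd-A 82. By highest window value abd-A was only 1.12-fold lower, and with the noise mean subtracted pros was 6.68-fold lower. Averaged over 500 bp on either side, pros alone stayed past 2-fold.

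By 30 min all 4 genes had less Cic coverage than dark embryos. Relative to no light, pros was 4.86-fold lower (2.99 to 8.41) and sisA 3.37-fold lower (2.48 to 4.59). Tom was 2.85-fold lower (2.20 to 3.72) and abd-A 2.51-fold lower (1.97 to 3.20). All 4 were past 2-fold, against 79.6% of all peaks, and all 4 were lower beyond counting error, against 95.1%. Their median fold of 3.11 was that of all peaks, 3.11. The value of pros depended on the setting. Its ratio to no light was 0.206 as reported and 0.380 over 500 bp on either side. With windows aligned by shape it was 0.334, and that of sisA was lower at 0.301. The alignment of pros ran to the search limit of 300 bp with a correlation of only 0.28. Its 0.334 is thus no like measure of the same stretch. With the noise mean subtracted, pros was left at the floor of 1 read equivalent, so its remaining Cic could not be measured at this depth, and the sisA ratio went from 0.297 to 0.190.

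From 5 to 30 min no pair of the 4 genes differed beyond counting error. By coverage abd-A fell a further 1.58-fold (1.21 to 2.06), as much as in the first 5 min, and was the only member lower beyond counting error, which 50.5% of all peaks were. The later ratio was 0.558 at pros (0.306 to 1.00), 0.708 at sisA (0.499 to 1.02) and 0.849 at Tom (0.626 to 1.16). The pros ratio ranged over other settings from 0.0969 with the noise mean subtracted to 0.956 over 500 bp. The 0.0969 rests on the floor of 1 read equivalent at 30 min and is not a measured level. No member was lower past 2-fold in this step, against 19.4% of all peaks. Of its whole fall in z-score by 30 min, Tom had completed 88.8% at 5 min, sisA 81.9%, pros 80.2% and abd-A 60.7%, with a median of 78.6% over all peaks that fell.

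Active Torso was compared with wild type as a state of constant signalling. The sisA peak was 4.08-fold lower (3.00 to 5.75) and the pros peak 2.61-fold lower (1.82 to 3.81). Tom was 2.40-fold lower (1.86 to 3.10) and abd-A 2.20-fold lower (1.73 to 2.85). All 4 members were lower past 2-fold, against 60.2% of all peaks, and all 4 were lower beyond counting error, against 87.4%. The members' median was 2.51-fold and that of all peaks 2.20-fold. By ratio sisA had rank 8 from the lowest of all peaks, whereas pros had rank 29, Tom 40 and abd-A 51. Averaged over 500 bp on either side, 2 of 4 members stayed past 2-fold. With the noise mean subtracted, sisA was 8.46-fold and pros 5.95-fold lower. Set beside each other, sisA kept 24.5% of its reference coverage with active Torso and 29.7% after 30 min of light, while pros kept 38.3% and 20.6%, Tom 41.6% and 35.1%, and abd-A 45.4% and 39.9%.

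**Figure D4:**
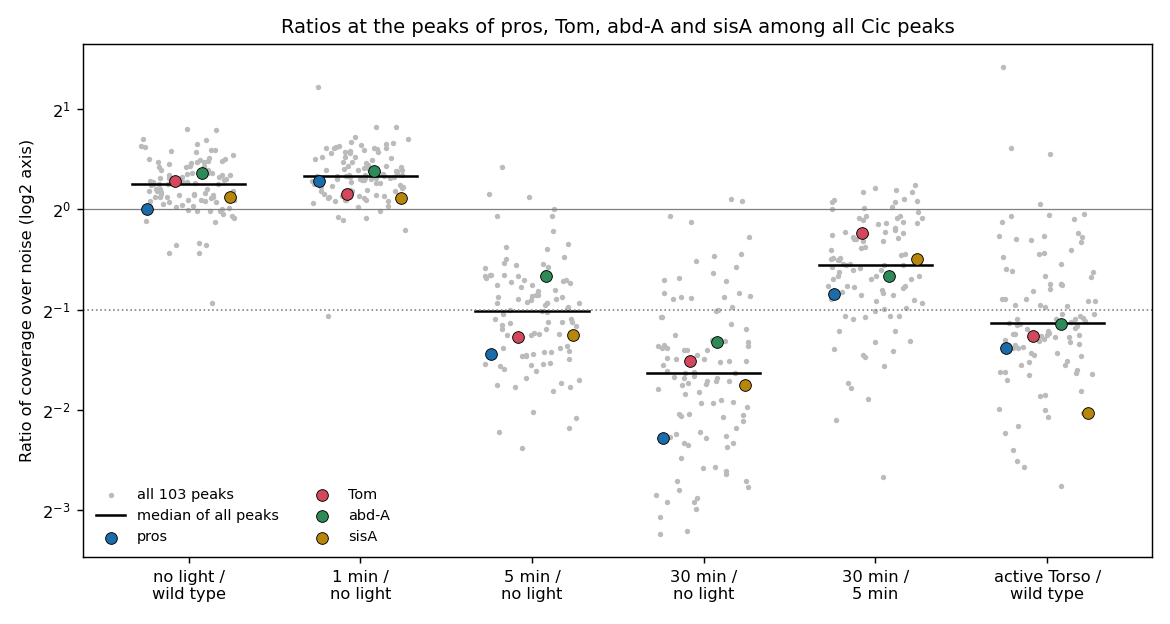
Ratios of coverage over noise in 6 comparisons on a log2 axis, with all final peaks in grey, their median as a black bar and the 4 named peaks in colour. The dotted line marks 2-fold lower. At 5 min abd-A is the only one of the 4 above the dotted line, at 30 min pros is lowest of the 4 in this measure, and with active Torso sisA is.

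Differences among the 4 genes were set against counting error by the ratio of their ratios, for 36 pairs of genes and comparisons, with 95% intervals from a normal approximation on the log scale. Of these, 6 had an interval that excluded 1, and none of them was in no light against wild type, in 1 min against no light or in the step from 5 to 30 min. The intervals were not adjusted for the number of pairs, and the pairs share genes and matrices. At 5 min abd-A kept more than each of the others, 1.71 times as much as pros (1.13 to 2.59), 1.53 times as much as Tom (1.13 to 2.06) and 1.51 times as much as sisA (1.10 to 2.06). At 30 min abd-A kept 1.94 times as much as pros (1.13 to 3.33). With active Torso abd-A kept 1.85 times as much as sisA (1.25 to 2.74) and Tom 1.70 times as much (1.14 to 2.53). For the other 30 pairs the interval included 1, as for Tom and sisA at 5 min (0.985, 0.702 to 1.38), which does not show that they act alike.

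Patterns over the 6 conditions were compared as log2 coverage over noise, each peak centred on its own mean. The distance is the root mean square difference over 6 values per peak, and these values share libraries. The pros pattern was closest to those of the EGF receptor gene Egfr (0.119), the POU factor gene pdm2 (0.132) and CG16813 (0.146). That of Tom was closest to tna (0.0854), tal-2A (0.106) and emc (0.116). For abd-A the nearest were dpp peak 2 (0.143), cic peak 1 (0.165) and tna (0.170), and for sisA prd peak 1 (0.167), cic peak 1 (0.174) and dpp peak 1 (0.182). Among the members, Tom and abd-A were the most alike (0.226), and pros and abd-A the least (0.477).

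Other genes of the same programmes were looked up in 4 gene lists. Of 13962 protein-coding genes in the RefSeq table, 0.623% were annotated to a final peak. Of 8 Hox genes abd-A alone was. Within 10000 bp of a final summit, where 1.65% of protein-coding genes lay, there was also pb, through a peak 2.78 kb away that the authors annotated to zen2. Counting all MACS2 calls, whose summits lay within that distance of 7.46% of protein-coding genes, every Hox gene but lab was near a call. The calls beside the others were weaker than the abd-A peak, from a fold enrichment of 2.35 at Dfd to 4.67 at Scr, except the peak near pb with 12.9.

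Of 15 genes of the Bearded family and the Enhancer of split complex, Tom alone was annotated to a final peak. Brd and Ocho lay within 10000 bp of the same Tom peak. A left-out call with a fold enrichment of 3.49 stood over E(spl)m7-HLH, a Notch target. Of 24 neuroblast and neural fate genes 4 were annotated, namely pros, the mesoderm and neuroblast factor sna, the neuroectoderm homeobox gene ind and pdm2. Coverage after 5 min was 2.96-fold lower at ind (2.39 to 3.71), 3.24-fold at pdm2 (2.32 to 4.58) and 1.32-fold at sna (1.12 to 1.55), which places pros between them. Calls left out of the final list stood over the SOX gene D (fold enrichment 2.62) and near hb. The one near the gap gene hb, which also acts in neuroblast timing, had a fold enrichment of 4.47.

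Of 15 sex determination genes sisA, upd1 and emc were annotated to a final peak. The X-linked upd1 encodes a ligand of the JAK/STAT pathway that also counts as a signal for Sxl, and emc encodes an HLH protein that counteracts these signals. After 30 min upd1 was 3.80-fold lower (2.72 to 5.40) and emc 2.81-fold (1.97 to 4.08), on either side of sisA. With active Torso upd1 was 4.01-fold lower (2.80 to 6.07), rank 9 from the lowest and next to sisA at rank 8. At emc it was 2.76-fold lower (1.94 to 4.09). Sxl itself had a left-out call 0.149 kb away, with a fold enrichment of 2.38, and the corepressor gene gro was within 10000 bp of the call over E(spl)m7-HLH.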

How the data were processed

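The submitters' processing notes name ChIPseeker, MACS2, SAMtools, Trim Galore and BWA (0.7.17-r1188), with the dm6 build. Per the file headers, MACS 2.1.2 called 468 peaks on pooled wild type against pooled untagged ChIP libraries, at q 0.01, extending reads to 145 bp and keeping every duplicate. For each call the authors deposited a fold enrichment, a pileup signal and a -log10 q-value, and a score in the final list. How 103 of these became the final list is not given in any source here. The deposited matrices hold a z-score per 10 bp window, 201 windows for each peak, as 1 matrix per condition.

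Scores were turned back into whole steps (Python 3.11.15, NumPy 2.4.6, SciPy 1.17.1), and 74 bases count as 1 read equivalent. Matrix columns carry no names and were taken in the order of the peak list. In the wild type matrix 6 of 6 pairs of neighbouring peaks shared identical overlapping windows in genome direction, against 0 of 821 unrelated pairs. None of the neighbouring pairs held a member, and the other matrices were not checked in this way. Windows were centred anew in each condition, which raises weak signals, and 87 to 103 windows a condition had at the centre the highest point within 200 bp. Ratios were computed for all 103 peaks. The recovery of steps and ratios was tried on simulated windows with reads spread evenly. These had no central summit and were not centred anew, so the effect of centring was not tested. The genes named are the members, the 3 peaks nearest in pattern to each, and list genes with a peak. Members, lists and rules were chosen with earlier results of these data known. Input libraries and genome sequence were not used here.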

Additional observations from a re-analysis of the deposited data

Results flagged for a closer look

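The calls below lie within 100 kb of a described peak but outside the final list, and they appear because their signal in wild type embryos was above that of the untagged controls in data that the comparisons do not use. They have no matrix here, so their response to light was not analysed. Over all 365 left-out calls the median fold enrichment was 3.23. In the Bearded cluster the call 14.6 kb from the Tom peak, with its summit between CG3349 and CG5114, had a fold enrichment of 4.18. The call 75.97 kb from the Tom peak, in the ind region, had 2.41. In the bithorax complex the call 84.1 kb from the abd-A peak, over lncRNA:bxd and 8.03 kb from Ubx, had 4.32. The call 42.96 kb from it, over MSAmiP and lncRNA:iab8, had 3.17. Those 92.5 and 95.1 kb away, over lncRNA:iab8 and 8.13 and 5.54 kb from Abd-B, had 3.41 and 3.13.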

How the results depend on the processing

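No paired analysis was possible because replicates were combined before deposit, and for the same reason no library could be left out. Motif searches were not run, since no genome sequence was used. Of 144 alternative ratios at the 4 genes 129 stayed within their counting interval, 15 moved beyond it and none past 2-fold reversed. Of the ratios not past 2-fold, those of pros and abd-A in no light against wild type fell below 1 under 1 setting each, and that of sisA at 1 min under 2. All 24 stayed within it under the 100 bp, shape-aligned and flank-scaled settings. For pros at 30 min the shape alignment ran to its search limit of 300 bp, against no light and against 5 min. Scaling on the flanks moved the log2 median of all peaks by 0.198 at 5 min and 0.173 at 30 min. Peaks past 2-fold in no light against wild type were 0, and 1 with 100 bp, with highest values or with flank scaling, 2 with the noise subtracted and 10 at 1.5-fold. In 1 min against no light they were 2, and 1 with 500 bp or highest values and 18 at 1.5-fold. Lower peaks at 5 min were 53, and 86 at 1.5-fold; from 5 to 30 min 20, and 31 with 100 bp, 10 with 500 bp, 44 with the noise subtracted and 49 at 1.5-fold; with active Torso 62, and 40 with 500 bp. Members lower past 2-fold went from 3 to 1 at 5 min and from 4 to 2 with active Torso with 500 bp, and from 0 to 1 (100 bp), 1 (noise subtracted) and 2 (1.5-fold) from 5 to 30 min. With the noise subtracted that member was pros, at the floor of 1 read equivalent at 30 min. The cause of these moves was not tested. At Tom the stretch on the right alone, chosen after seeing the data, reversed the ratio to 1.23 at 5 min and 1.15 at 30 min. Its counting intervals included 1, and it did not cover the same bases in each condition. With gene bodies within 10000 bp of a final summit, or of any call (added after seeing the data), the Hox list had 2 and 7 genes in place of 1, the Bearded and Enhancer of split list 3 and 7 in place of 1, and the sex list 3 and 5 in place of 3. Counting error limits pros most, with 19.1 read equivalents at 30 min.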

Other observations

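Both X-linked genes of the sex list that had a peak stood next to each other when all peaks were ordered by their ratio with active Torso, sisA 4.08-fold lower and upd1 4.01-fold lower. Over all 13 peaks on X the median was 3.08-fold lower with active Torso and over the 90 autosomal peaks 2.18-fold, and after 30 min of light the medians were 3.93-fold and 2.91-fold. The X peaks ranged in their ratio to wild type from 0.148 at CG9220 to 1.53 at CG3168. No test of this difference was possible with 1 matrix per condition.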
